A study of Homo sapiens with 29 samples.

Results

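Of 23665 INO80 peaks in HepG2 cells, 778 were at least 3000 bp wide and overlapped a YY1 peak of the same cells by 1 bp or more, and these broad INO80 domains with YY1 are described here. The domains were thus chosen by INO80 width and YY1 overlap in HepG2, and both are given below as description with no test. The remaining INO80 peaks were 86 broad ones without YY1, 15870 narrower ones with YY1 and 6931 narrower ones without YY1. A broad domain with YY1 had a median width of 3821.5 bp, with a range of 3001 to 15541 bp, and together they covered 3.41 Mb.

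INO80 is the ATPase of a chromatin remodelling complex that slides nucleosomes and places them beside gene starts. RUVBL1 and RUVBL2 are paired AAA+ ATPases that form a ring in this complex and also belong to other assemblies, including the SRCAP and TIP60 complexes. MCRS1 is an accessory subunit that is also found in other complexes, among them NSL. YY1 is a zinc finger protein that reads DNA directly, is associated with the INO80 complex and binds many promoters of active genes.

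The series holds 29 chromatin immunoprecipitation sequencing libraries in 14 groups, from HepG2 and Huh7 cells fixed with 0.3% formaldehyde for 30 min per the labels. Used here are the peak lists for INO80 (3 libraries), MCRS1, RUVBL1 and RUVBL2 (2 libraries each) in HepG2, and for INO80, MCRS1, RUVBL2 and YY1 in Huh7 (2 libraries each). These are all from cells with no labelled treatment or genetic change. The list for YY1 in HepG2 was also used, which the submitters made from ENCODE reads. None of the 29 libraries is of YY1 in HepG2, so the labels do not give the treatment, genetic state or fixation of those cells. HepG2 and Huh7 are established lines from human liver tumours, and each stands for 1 line and not for liver tissue. Each factor and line has 1 deposited list of positions without heights, so no value below has an error between replicates, library depth is unknown, and intervals cover only the number of domains counted.

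YY1 is known to bind a short element whose core reads ATGG, and the form AANATGGC was looked for on both strands in the 300 bp about each YY1 peak centre. It occurred at 108 of the 1326 YY1 peaks in the broad domains (8.14%), at 9.39% of YY1 peaks in narrower INO80 peaks, and at 11.97% of those outside INO80 peaks. Over all 39293 YY1 peaks in HepG2 the share was 10.8%, so YY1 peaks in broad domains held this form in that window no more often than others. The centre is the midpoint of the peak. Median YY1 peak widths were 1022 bp in broad domains, 733 bp in narrower INO80 peaks and 215 bp outside them. The window thus took in a smaller part of the YY1 peaks in broad domains, and the effect of this on the shares was not tested. At least 1 match was present in 104 of the 778 domains (13.4%). A longer form, in which AANATGGC is followed directly by GGC and which is counted within the shorter one, was present at 12 of the 1326 YY1 peaks (0.905%), against 1.13% of all YY1 peaks. Among the 300 bp about the canonical start of coding genes at broad domains with YY1, 92 of 758 held AANATGGC (12.1%), against 8.35% of all 19532 such starts. The longer form was present at 22 of them (2.90%), against 2.42% of all.

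For 4 of the 20 widest domains, the match closest to a YY1 peak centre is printed 5′ to 3′ to show the element in its setting, with AANATGGC in capitals and 30 bases on either side. All coordinates are on hg19, and the sequences were read from GRCh37. The ALB sequence is the minus strand of chr4:74281618-74281685, in an intron of the gene and 123 bp from the YY1 centre. The NEAT1 sequence is the plus strand of chr11:65186776-65186843, between annotated genes and 45 bp from the centre of its YY1 peak. The SNX5 sequence is the minus strand of chr20:17940088-17940155, in an intron shared by SNX5 and OVOL2 and 36 bp from the YY1 centre. The MALAT1 sequence is the minus strand of chr11:65265254-65265321, in an exon of that non-coding RNA. It lies 275 bp from the YY1 centre, outside the 300 bp window used for the counts above.
ALB: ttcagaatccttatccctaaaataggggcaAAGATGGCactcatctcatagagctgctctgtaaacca
NEAT1: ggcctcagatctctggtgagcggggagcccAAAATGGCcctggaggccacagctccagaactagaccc
SNX5: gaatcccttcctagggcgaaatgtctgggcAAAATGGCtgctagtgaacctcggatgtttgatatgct
MALAT1: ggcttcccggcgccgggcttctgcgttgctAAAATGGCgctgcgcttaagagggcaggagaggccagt
The bases that follow the capitals differ among the 4 sequences, and none of these matches continues into the longer form.

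Broad domains with YY1 carried the other INO80 complex proteins more often than INO80 peaks of at least 3000 bp without YY1, which had a median width of 3582 bp. MCRS1 had a peak in 751 of 778 domains with YY1 (96.5%) and in 19 of 86 broad peaks without YY1 (22.1%), where 70.4% of all INO80 peaks had it. Narrower INO80 peaks showed a like gap, with MCRS1 at 88.7% of those with YY1 and 26.0% of those without, so the gap was not particular to broad domains. RUVBL2 was present in 687 domains with YY1 (88.3%) and in 9 broad peaks without YY1 (10.5%), against 41.1% of all INO80 peaks. RUVBL1 was present in 509 domains with YY1 (65.4%) and in 3 broad peaks without YY1 (3.49%), against 18.8% of all INO80 peaks. The difference was 74.4 percentage points for MCRS1 (95% interval 64.5 to 82.0), 77.8 for RUVBL2 (69.2 to 83.1) and 61.9 for RUVBL1 (54.8 to 65.9). All 3 passed Fisher's exact test (two-sided), with p-values adjusted by the Benjamini-Hochberg method over 6 differences of 4.23e-59 for MCRS1, 2.19e-51 for RUVBL2 and 3.95e-31 for RUVBL1. These p-values take each domain as independent, although 69 of 755 pairs of neighbouring domains on a chromosome lay within 20000 bp of each other, and they do not measure the spread between libraries. Among narrower INO80 peaks RUVBL2 was at 52.9% of those with YY1 and 9.13% of those without, and RUVBL1 at 23.2% and 3.58%. Those gaps were smaller than in broad peaks but ran the same way.

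All 3 partners were present together in 503 domains with YY1 (64.7%) and in 3 broad peaks without YY1 (3.49%), against 14.8% of all INO80 peaks. None of the 3 was present in 25 domains with YY1 (3.21%) and in 66 broad peaks without YY1 (76.7%), against 28.3% of all INO80 peaks. RUVBL2 without RUVBL1 was found in 184 domains with YY1 and RUVBL1 without RUVBL2 in 6. Of the 509 domains with RUVBL1, 503 thus also had RUVBL2, which was in 88.3% of all 778 domains. Overlap with the same wide domain does not place the 2 proteins at the same bases. The RUVBL1 list holds 5518 peaks and the RUVBL2 list 12936, and the part of that gap that follows library depth or antibody was not tested. Wide intervals meet other peaks more readily than narrow ones. When all peaks were cut or extended to 200 bp around their midpoints, MCRS1 was met by 35.6% of domains with YY1, 5.81% of broad peaks without YY1, 61.6% of narrower INO80 peaks with YY1 and 46.9% of all INO80 peaks. At that size the difference between broad peaks with and without YY1 was 29.8 points for MCRS1, 20.6 for RUVBL2 and 7.83 for RUVBL1, each still past the test. RUVBL2 was then met by 21.7% of domains with YY1 and 23.96% of all INO80 peaks, and RUVBL1 by 8.997% of domains with YY1 and 8.74% of all, so at this size MCRS1 and RUVBL2 were lower in broad domains with YY1 than in all INO80 peaks.

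**Figure D1:**
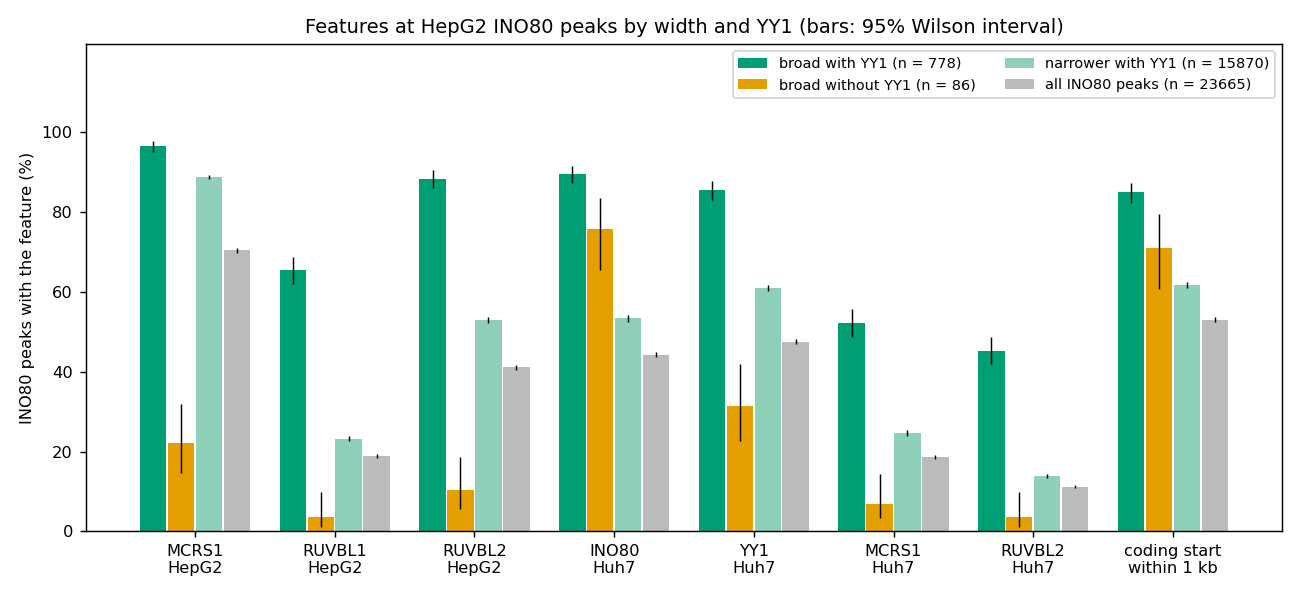
Share of HepG2 INO80 peaks (%) that overlap a peak of each factor by 1 bp or have a coding gene start within 1 kb, with 95% Wilson intervals, for broad peaks with YY1 (n = 778), broad peaks without YY1 (n = 86), narrower peaks with YY1 (n = 15870) and all peaks (n = 23665). MCRS1 stands at 96.5% in broad peaks with YY1 and at 22.1% in broad peaks without YY1, while INO80 in Huh7 stands at 89.5% and 75.6%.

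MCRS1 peaks spanned most of a broad domain with YY1, while YY1 and RUVBL2 took about as much of it as each other and RUVBL1 much less. In the median domain MCRS1 covered 86.1% of the bases, YY1 49.4%, RUVBL2 45.1% and RUVBL1 9.25%. Summed over all bases of the domains, MCRS1 covered 78.6% of those with YY1 and 4.25% of the broad peaks without YY1. For RUVBL2 the summed shares were 47.6% in domains with YY1 and 1.57% in broad peaks without YY1, and for RUVBL1 they were 22.5% in domains with YY1 and 1.64% in broad peaks without YY1. Over the bases of all INO80 peaks the summed shares were 66.5% for MCRS1, 29.5% for RUVBL2 and 10.4% for RUVBL1. For YY1 they were 48.3% in domains with YY1 and 52.8% in all INO80 peaks. MCRS1 peaks were often broad themselves, since 711 of the 23425 in HepG2 were 3000 bp or wider. YY1 was more often patchy. A single YY1 peak lay in 396 domains, 2 peaks in 270, 3 in 78 and 4 or more in the remaining ones, up to 7. The median width of a YY1 peak was 1022 bp in broad domains, 733 bp in narrower INO80 peaks and 215 bp outside INO80 peaks.

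The domains with little YY1 differed from the rest in the partner lists. In 93 domains YY1 peaks covered less than 15% of the bases, a boundary chosen after the values were seen. Of these 93, 66 had MCRS1 (71.0%), 34 had RUVBL2 (36.6%) and 15 had RUVBL1 (16.1%). These shares were near those of all INO80 peaks, at 70.4% for MCRS1, 41.1% for RUVBL2 and 18.8% for RUVBL1. In the 685 domains with more YY1, all 685 had MCRS1, 653 had RUVBL2 (95.3%) and 494 had RUVBL1 (72.1%). The highest YY1 cover of a domain without MCRS1 was 14.8%, just under the boundary. That all 685 had MCRS1 thus follows from where the boundary was placed. INO80 was seen in Huh7 at about the same share on both sides of that boundary, at 82 of the 93 domains with little YY1 (88.2%) and 614 of the 685 with more (89.6%). No test is given, because YY1 cover belongs to the rule that chose the domains.

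**Figure D2:**
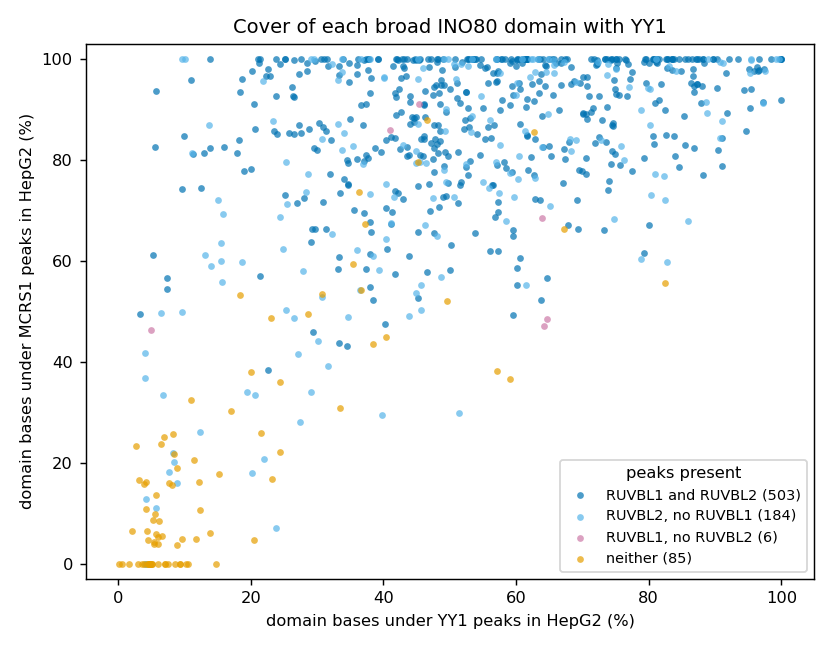
Share of domain bases under YY1 peaks (horizontal, %) and under MCRS1 peaks (vertical, %) in HepG2 for each of the 778 broad INO80 domains with YY1, coloured by the RUVBL1 and RUVBL2 peaks present (503 with both, 184 with RUVBL2 only, 6 with RUVBL1 only, 85 with neither). Domains with no MCRS1 lie at the lower left, all with YY1 over 14.8% of their bases or less.

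The 27 domains without MCRS1 had little YY1 and almost no RUVBL proteins. YY1 covered a median of 4.80% of their bases, against 50.8% in the 751 domains with MCRS1, although 21 of the 27 had INO80 in Huh7 as well (77.8%). RUVBL1 was absent from all 27, and RUVBL2 was found in 2. Those 2 were CYP26B1, which encodes an enzyme that breaks down retinoic acid, with RUVBL2 over 2.06% of its bases, and MIR124-3, which encodes a microRNA typical of neurons, with 2.87%.

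The widest domains with none of the 3 partners were at HMX3, EBF3 and VSTM2B. HMX3 encodes a homeobox factor of the inner ear and nervous system, and its 5458 bp domain at chr10:124892501-124897958 had YY1 over 4.45% and Huh7 INO80 over 67.1% of its bases. EBF3, which encodes a neuronal transcription factor, had a domain of 4988 bp with YY1 over 3.97%. VSTM2B, which encodes a membrane protein with an immunoglobulin-type domain, had one of 4936 bp with YY1 over 2.98%. Neither EBF3 nor VSTM2B had INO80 in Huh7. Further members of this group were WNT1 and DHH, which encode secreted signals, the homeobox gene CDX2, and CYP26A1, another retinoic acid hydroxylase. The least YY1 in the group was at GADD45G, 3 bp of a 3247 bp domain. DHH had YY1 over 23 bp of a 4113 bp domain, and INO80 in Huh7 over all of its bases.

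RUVBL1, RUVBL2 and separate YY1 peaks were found more often in the wider of these domains. From 3000 to under 4000 bp there were 443 domains, from 4000 to under 6000 bp 246, and at 6000 bp or more 89. RUVBL1 was present in 56.9%, 71.5% and 91.0% of these, from the narrowest to the widest, and RUVBL2 in 85.1%, 89.8% and 100%. The share of bases under MCRS1 had medians of 85.1%, 85.0% and 92.4%, and the median under YY1 was 54.8%, 46.2% and 46.2%. The median share of bases under RUVBL1 was 6.35%, 11.1% and 36.4%. These medians include the domains without RUVBL1, so a larger share of domains with RUVBL1 can raise them by itself. Whether RUVBL1 took a larger part of the domains that had it was not tested. No test is given, because width chose the domains. The mean number of YY1 peaks per domain was 1.44, 1.77 and 2.85, at median widths of 3379, 4690 and 7211 bp. Wider domains have more bases in which a peak can lie, so these counts and the shares with RUVBL1 or RUVBL2 are not per length. CpG content ran the other way, with a median ratio of observed to expected CpG of 0.721, 0.679 and 0.564.

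The 20 widest domains lay at liver-specific genes, at genes that almost every cell uses and at long non-coding RNAs. All 20 had MCRS1 over at least 66.3% of their bases and all 20 had RUVBL2, 19 had RUVBL1 and 18 had INO80 in Huh7. The widest, at chr4:74269989-74285529, ran 15541 bp from the start of ALB, which encodes serum albumin, into the gene. MCRS1 covered 99.99% of it and RUVBL2 24.5%, 5 YY1 peaks covered 10.1%, and it was the domain among the 20 without RUVBL1. In Huh7 only a 747 bp INO80 peak lay there. FGL1, which encodes a liver-secreted protein related to fibrinogen, had a domain of 11744 bp with 7 YY1 peaks over 23.9% of its bases, MCRS1 over 99.98% and RUVBL1 over 76.2%, and its INO80 peak in Huh7 was 149 bp. APOB, the structural protein of low density lipoprotein, had 9802 bp, with YY1 over 63.6% and RUVBL1 over 90.8% of its bases. HLF encodes a bZIP transcription factor of liver, and its 9450 bp domain was 12.5% covered by INO80 in Huh7. DHRS2, which encodes a short-chain dehydrogenase, had 9425 bp fully covered by MCRS1 and RUVBL2 and no INO80 peak in Huh7.

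A second set of the widest domains was at genes of chromatin and transcription control. The domain of 14809 bp at chr12:122229976-122244784 joined SETD1B, a histone H3 lysine 4 methyltransferase gene, to RHOF, a small GTPase gene, and held 7 YY1 peaks. These YY1 peaks covered 51.5% of its bases. IRF2BP2, which encodes a transcriptional co-repressor, had 14721 bp with 5 YY1 peaks over 51.2% and 6 RUVBL1 peaks over 51.0%. TNRC18 encodes a chromatin-associated protein, and its 12272 bp domain at chr7:5457935-5470206 met the widest Huh7 INO80 peak of all 778 domains, of 10666 bp. These 3 domains had RUVBL1 in several separate peaks, whereas RUVBL1 ran through NEAT1 and VMP1 as 1 peak each.

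NEAT1, the RNA scaffold of paraspeckles, had a domain of 12595 bp with RUVBL1 over 95.2% of its bases and YY1 over 30.3%. MALAT1, a nuclear RNA of splicing speckles, had 10583 bp with RUVBL1 over 80.1%, and 1 YY1 peak over 20.6% at its 5′ end. Both kept broad INO80 peaks in Huh7, of 6572 bp at NEAT1 and 10026 bp at MALAT1. VMP1 encodes a membrane protein of autophagy, and its 12947 bp domain, which also spans the microRNA gene MIR21, had RUVBL1 over 83.3% of its bases. ASPSCR1, which encodes a tether for the glucose transporter GLUT4, had 13276 bp fully covered by MCRS1, with 5 YY1 peaks over 60.3% and no INO80 or YY1 peak in Huh7. A domain of 10061 bp at the pseudogene SLC7A5P2 lies in near-identical copies on chromosome 16, where reads may be split between copies, and is uncertain for that reason.

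Other domains among the 20 were at genes used by most cells. ACTB, which encodes cytoplasmic actin and a subunit of the INO80 complex itself, had 9818 bp with RUVBL1 over 80.9% and RUVBL2 over 87.7% of its bases. FTL, the light chain of ferritin, had 9630 bp with YY1 over 70.5%. SLC38A2, an amino acid transporter gene, had 11464 bp with 1 YY1 peak over 20.1% and 4 RUVBL1 peaks over 71.6%. SRSF3, which encodes a splicing factor, had 9417 bp with the lowest MCRS1 cover of the 20, at 66.3%. The head-to-head pair MGME1, a mitochondrial exonuclease gene, and SNX5, a sorting nexin gene, shared 10856 bp with 5 YY1 peaks.

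**Figure D3:**
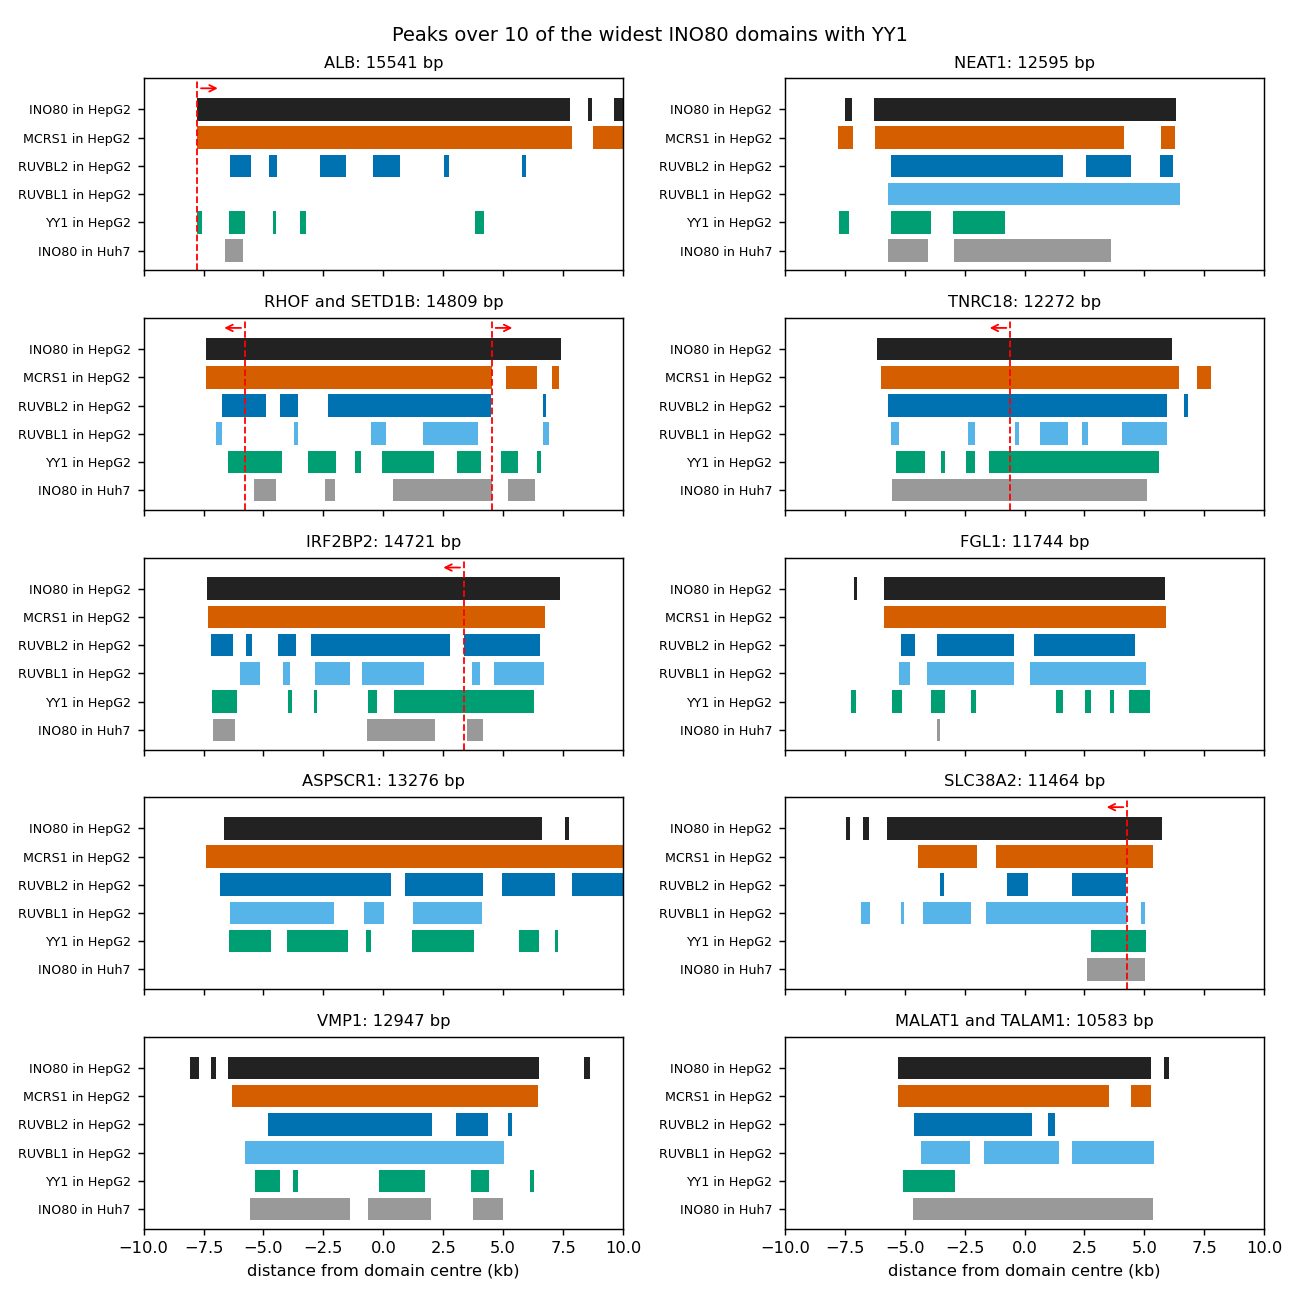
Peaks of INO80, MCRS1, RUVBL2, RUVBL1 and YY1 in HepG2 and of INO80 in Huh7 over 10 of the 12 widest domains, as distance from the domain centre (kb), with red dashed lines and arrows for canonical coding starts and their direction. MCRS1 covers between 78.3% (SLC38A2) and 100% (ASPSCR1) of each domain, YY1 has 5 blocks over ALB, 7 over RHOF and SETD1B and 1 over SLC38A2 and MALAT1, and INO80 in Huh7 is absent over ASPSCR1 and broad over TNRC18 and MALAT1.

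A start of a protein-coding gene lay within 1 kb of 661 domains with YY1 (85.0%) and of 61 broad peaks without YY1 (70.9%), against 53.0% of all INO80 peaks. The difference of 14.03 points (95% interval 5.08 to 24.6) passed Fisher's exact test (two-sided, adjusted p = 0.00188). By the same exact test it was 8.75 points (adjusted p = 0.289) among domains of at least 4000 bp and 3.42 points (adjusted p = 0.381) with starts up to 5 kb away, and did not pass in either setting. Among narrower INO80 peaks a coding start was near 61.7% of those with YY1 and 29.3% of those without, so the gap was not particular to broad domains. Starts of at least 2 coding genes were near 102 domains with YY1 (13.1%) and near 2 broad peaks without YY1 (2.33%), against 6.43% of all INO80 peaks. A pair of coding genes that point away from each other was held by 48 domains with YY1 (6.17%) and by 0 of 86 broad peaks without YY1, which allows a share of up to 4.28% by its Wilson interval, against 3.62% of all INO80 peaks. Examples were MGME1 with SNX5 and the pair CBX5, a heterochromatin protein gene, and HNRNPA1, an RNA-binding protein gene.

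INO80 and MCRS1 reached further into genes than upstream of them, and YY1 stayed close to the start. In the 508 domains with YY1 that held the canonical start of exactly 1 coding gene, the domain reached a median of 2631.5 bp into the gene and 1358.5 bp upstream, and 388 of them were longer on the gene side (76.4%). The 56 broad peaks without YY1 of the same kind had a like form, with 2290 bp into the gene, 1449.5 bp upstream and 42 longer on the gene side (75%). The nearest YY1 peak centre lay a median of 320.5 bp from the start, and within 500 bp in 336 of the 508 domains (66.1%). At the start itself, 87.6% of these domains had YY1 and 87.6% had MCRS1, 53.7% had RUVBL2 and 56.7% had INO80 in Huh7. At 2000 bp into the gene, INO80 was still present in 71.9% of the domains and MCRS1 in 56.1%, while YY1 was present in 21.7%. At 2000 bp upstream, INO80 was present in 30.3%, MCRS1 in 22.0% and YY1 in 17.5%. RUVBL1 had a shape of its own, with 20.1% of domains at 400 bp upstream and 15.9% at the start. It was lower inside the gene, at 13.4% at both 400 and 600 bp, and 18.7% at 1600 bp. In broad peaks without YY1, 0 of 56 had MCRS1 at the start.

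**Figure D4:**
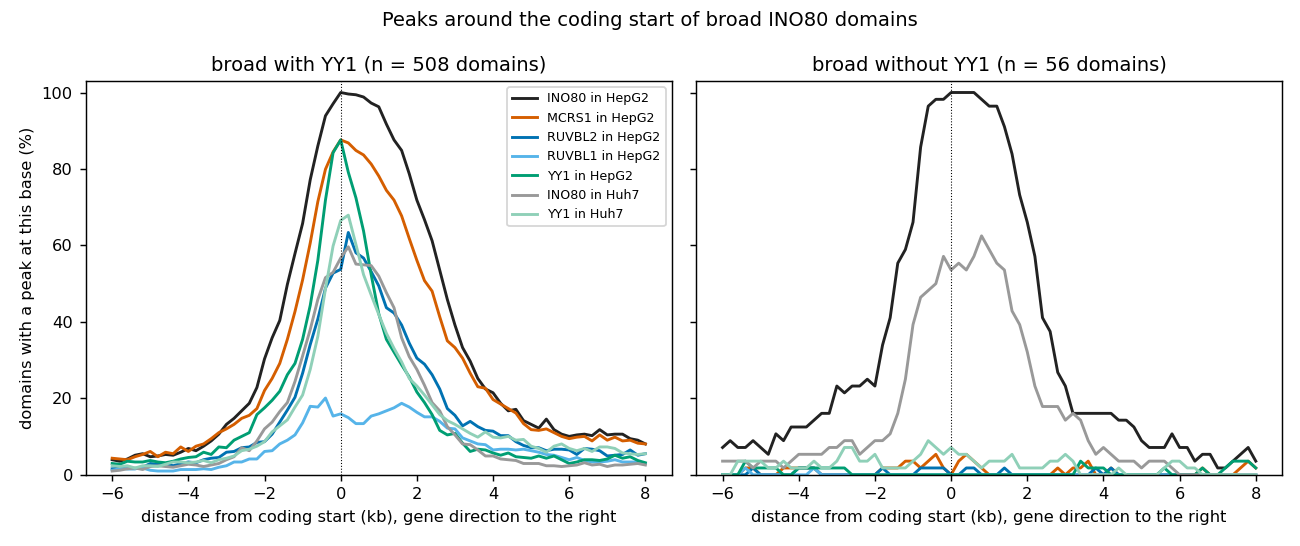
Share of domains (%) with a peak at each base from 6 kb upstream to 8 kb downstream of a canonical coding start, in steps of 200 bp, for broad INO80 peaks with YY1 (left, n = 508) and without YY1 (right, n = 56), with 1 line per factor and line. With YY1, MCRS1 follows INO80 into the gene (56.1% at 2000 bp) while YY1 is at 21.7% there. Without YY1, MCRS1 stays near 0.

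Among all 19812 protein-coding genes, 764 had a start within 1 kb of a broad domain with YY1 (3.86%), and 63.7% had a start within 1 kb of any INO80 peak. The genes were read in 18 lists of known function, and the counts below are a description, since the lists were written with results of these data known. Of 40 liver plasma protein genes 10 lay at a broad domain (25%), and 10 of 25 liver transcription factor genes did (40.0%). Neuronal genes gave 2 of 30 (6.67%), GAD1, the enzyme that makes GABA, and TUBB3, a beta-tubulin. Blood cell genes gave 1 of 30 (3.33%), HBA1, a haemoglobin chain. Endothelial and fibroblast genes gave 1 of 19 (5.26%), PDGFRA, a growth factor receptor. Some INO80 peak of any width lay at 30 of the 40 plasma protein genes and 23 of the 25 liver transcription factor genes. The same held for only 11 of the neuronal, 13 of the blood cell and 5 of the endothelial and fibroblast genes. HBA1 has a near-identical copy, and its domain had YY1 over 1.65% of its bases and no MCRS1, RUVBL1 or RUVBL2.

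Domains at plasma protein genes varied in their YY1 cover. Over the 10 domains the median YY1 cover was 23.6% and the median MCRS1 cover 98.0%, against 49.4% and 86.1% over all 778 domains. Beyond ALB, FGL1 and APOB, the fetal albumin relative AFP had 7500 bp with 5 YY1 peaks over 13.8% of its bases, and SERPINA1, which encodes alpha-1 antitrypsin, had 5640 bp with YY1 over 23.4%. In 3 of the 10, YY1 cover was above the median of all domains, at APOB, at APOA2, which encodes another protein of high density lipoprotein, with 51.3%, and at APOA1, the main protein of that particle, with 96.6%. MCRS1 cover was below the median of all domains at APOA2, with 71.5%, and at APOH, which encodes a phospholipid-binding plasma protein, with 85.3%. Only 4 of the 10 had an INO80 peak in Huh7, and at none of them did it reach 3000 bp. The 10 domains at liver transcription factor genes, in contrast, all had INO80 in Huh7, with a median of 72.4% of bases covered. The widest were at TBX3, a T-box repressor gene, with 5466 bp, at CEBPB, a bZIP factor gene, with 4437 bp, and at NR0B2, the gene of the nuclear receptor SHP that curbs bile acid synthesis, with 4433 bp.

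Immediate early genes are switched on within minutes by growth signals and stress, and amino acid response genes are switched on when amino acids run short. Of 40 immediate early genes 17 lay at a broad domain (42.5%), all 17 with MCRS1 and with INO80 in Huh7, and 9 of these had a Huh7 INO80 peak of at least 3000 bp. The widest were at ZFP36L1 and ZFP36L2, which encode proteins that send AU-rich mRNAs to decay, with 8139 and 6996 bp, and at DUSP6, an ERK phosphatase gene, with 6553 bp. MYC, which encodes a growth-promoting transcription factor, had 5885 bp with YY1 over 55.8% of its bases, and 4449 bp in Huh7. DUSP4, a related phosphatase gene, had YY1 over 8.93% and MCRS1 over 3.60% of its 5164 bp, and no RUVBL1 or RUVBL2. Of 32 amino acid response genes 11 lay at broad domains (34.4%), led by SLC38A2, by SLC7A5, a transporter gene for large amino acids, with 5827 bp, and by GPT2, which encodes an alanine aminotransferase, with 5073 bp.

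Targets of signalling pathways active in liver were described in the same way. Of 25 TGF-beta, BMP and YAP response genes 10 lay at broad domains (40.0%), the widest at ID1, an inhibitor of bHLH factors, with 8444 bp, TGIF1, a homeobox co-repressor gene, with 6094 bp, and BMP4, which encodes a secreted ligand, with 5954 bp.

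Genes of protein synthesis and folding differed in how far their domains were seen in Huh7. Of 26 small nucleolar RNA host genes 12 lay at broad domains (46.2%), the highest share of the 18 lists. All 12 had MCRS1, RUVBL2 and INO80 in Huh7, and 9 reached 3000 bp in Huh7. The widest were at SNHG3, with 6873 bp and RUVBL1 over 98.9% of its bases, at ZFAS1, with 6413 bp, and at RACK1, a ribosome-bound scaffold gene, with 5621 bp. SNHG3 and ZFAS1 are non-coding hosts, which the coding background does not include. Their domains also lie at the starts of the coding genes RCC1 and ZNFX1. Of 79 cytosolic ribosomal protein genes all 79 had some INO80 peak, but 18 had a broad domain (22.8%), the widest at RPS2 with 6503 bp, RPS12 with 6012 bp and RPLP0 with 4566 bp. All 18 had INO80 in Huh7, and 7 reached 3000 bp there. Ribosomal protein genes have many processed copies, which may affect how reads were placed. Of 30 chaperone and stress genes 10 lay at 9 domains (33.3%), the widest at HSPA1B, an inducible HSP70 gene, with 6015 bp, at XBP1, a factor of the unfolded protein response, with 5743 bp, and at P4HB, protein disulfide isomerase, with 5465 bp. In Huh7, 8 of the 9 domains had an INO80 peak and 2 reached 3000 bp, and the peak at HSPA1B was 184 bp. HSPA1B and HSPA1A are near-identical, so reads may be split between them.

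Among 27 genes of glycolysis and lactate 7 lay at broad domains (25.9%), the widest at ENO1, which encodes enolase, with 6823 bp, SLC2A1, a glucose transporter gene, with 6187 bp, and GAPDH, a glycolytic dehydrogenase gene, with 6173 bp. Cholesterol and fatty acid genes gave 3 of 27 (11.1%), FASN, which encodes fatty acid synthase, and SQLE, which encodes squalene epoxidase, among them. Cytoskeleton and housekeeping genes gave 9 of 29 (31.0%), with ACTB and FTL among the widest. Replication-dependent histone genes gave 8 of 28 (28.6%) at 5 domains, with a median Huh7 INO80 cover of 98.3%, the widest at H2AC6 with H2BC4, of 5065 bp, at H3C4, of 4609 bp, and at H2AC13 with H3C10, of 4529 bp. Histone genes of a class are close copies, and their values are uncertain to that extent.

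Chromatin regulator genes gave 8 of 40 (20%), with SETD1B and BRD2 among the widest, the last a gene for a BET protein that reads acetylated histones, with 7330 bp and YY1 over 72.3% of its bases. Of the 16 INO80 subunit genes 15 had some INO80 peak, and 2 had a broad domain, ACTB and YY1. The YY1 gene had 3100 bp with YY1 over 91.3% of its bases. Developmental regulators often held by Polycomb gave 7 of 70 (10.0%), and their domains had a median MCRS1 cover of 39.1%. The widest were at SIM2, a bHLH-PAS factor gene, with 5564 bp, FOXC1, a forkhead factor gene, with 4664 bp, and OTX1, a homeobox gene, with 4477 bp.

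**Figure D5:**
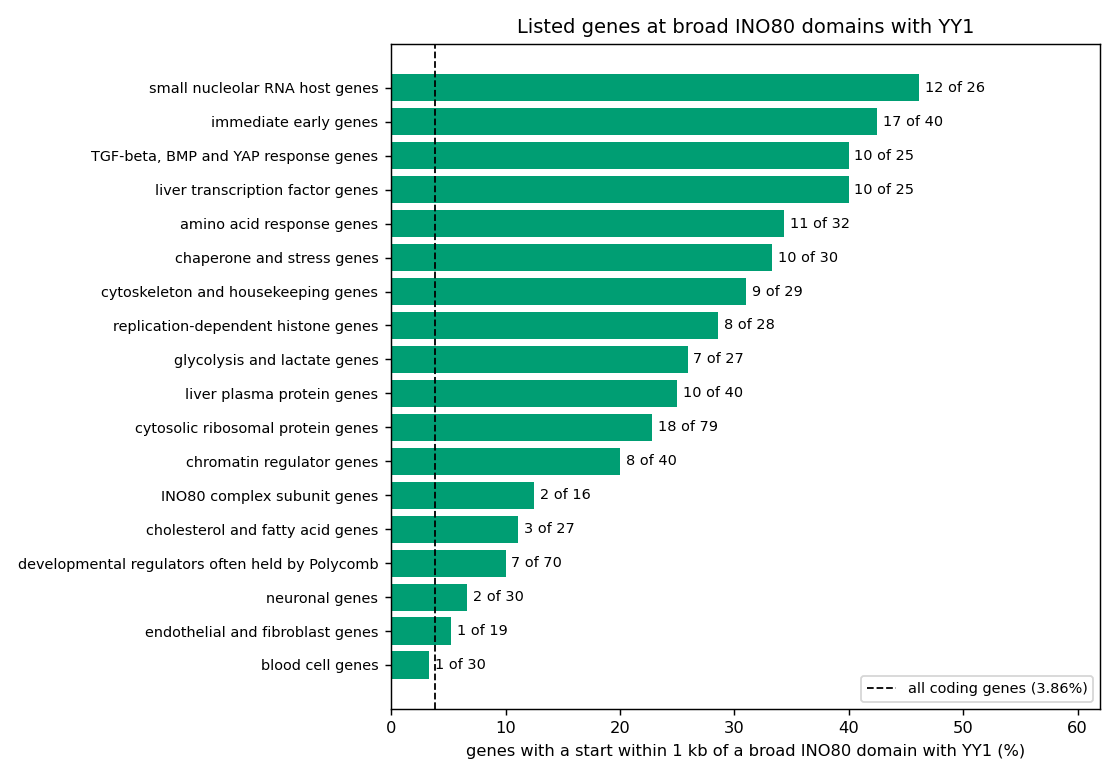
Share (%) of the matched genes of each of 18 lists that had a start within 1 kb of a broad INO80 domain with YY1, with the count of genes beside each bar and a dashed line at 3.86%, the share of all coding genes. Small nucleolar RNA host genes stand highest (12 of 26) and blood cell genes lowest (1 of 30).

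Most of the domains were found in Huh7 cells too, though usually as a narrower peak. INO80 had a peak in Huh7 at 696 domains with YY1 (89.5%) and at 65 broad peaks without YY1 (75.6%), against 44.2% of all INO80 peaks. The difference of 13.9 points (95% interval 5.68 to 24.1) passed Fisher's exact test (two-sided, adjusted p = 0.000747). It did not pass the same exact test at a minimum width of 4000 bp (6.43 points, adjusted p = 0.289) or with peaks set to 200 bp (0.413 points, adjusted p = 1.0). Narrower INO80 peaks showed a larger gap, with INO80 in Huh7 at 53.3% of those with YY1 and 18.0% of those without. The gap was thus not particular to broad domains. At 200 bp, INO80 in Huh7 was met by 20.2% of domains with YY1 and 24.8% of all INO80 peaks, so the order against all INO80 peaks turned round. The share of bases under Huh7 INO80 did not favour either kind, at 40.5% in domains with YY1 and 43.1% in broad peaks without YY1. A Huh7 peak of at least 3000 bp was met by 128 domains with YY1 (16.5%) and 13 broad peaks without YY1 (15.1%), against 0.925% of all INO80 peaks. The widest Huh7 peaks were those at TNRC18, MALAT1 and NEAT1.

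YY1 in Huh7 went with YY1 in HepG2. It was present at 665 domains with YY1 (85.5%) and at 27 broad peaks without YY1 (31.4%), against 47.4% of all INO80 peaks. The difference was 54.1 points (95% interval 43.3 to 63.2, Fisher's exact test, two-sided, adjusted p = 1.65e-25). At 200 bp it was 14.6 points, still past the test, with 16.97% of domains with YY1 and 28.5% of all INO80 peaks. Narrower INO80 peaks showed a like gap, with YY1 in Huh7 at 61.0% of those with YY1 in HepG2 and 12.4% of those without. The HepG2 YY1 list comes from ENCODE reads and the Huh7 YY1 list from this series, and the effect of that was not tested. INO80 and YY1 were both present in Huh7 at 628 domains with YY1 (80.7%) and 25 broad peaks without YY1 (29.1%), against 35.0% of all INO80 peaks. MCRS1 in Huh7 was present at 406 domains with YY1 (52.2%) and 6 broad peaks without YY1 (6.98%), against 18.7% of all INO80 peaks. RUVBL2 in Huh7 was present at 352 domains with YY1 (45.2%) and 3 broad peaks without YY1 (3.49%), against 11.2% of all INO80 peaks. The Huh7 lists of MCRS1 and RUVBL2 are short, with 6020 and 3322 peaks, against 23425 and 12936 in HepG2, and what part of the lower shares follows from that was not tested.

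The 82 domains without INO80 in Huh7 were less often at coding starts, with 45 of 82 (54.9%), against 616 of 696 (88.5%) of the domains that had it. The share of the 82 was near that of all INO80 peaks, at 53.0%. YY1 and MCRS1 cover of the 82 in HepG2 was close to that of the rest, with medians of 52.3% and 88.4%, against 49.3% and 85.9%. The widest were at ASPSCR1, at DHRS2 and at a second domain of HLF, of 8901 bp. Others were at AFP, ITIH2, which encodes a plasma protein that binds hyaluronan, and IGF2, an imprinted growth factor gene, with 6365 bp. AXIN2, which encodes a scaffold that limits Wnt signalling, had 6876 bp fully covered by MCRS1. HepG2 is known to carry extra copies of chromosomes 2, 14, 16, 17 and 20. These held 47 of the 82 (57.3%), against 280 of the 696 domains with INO80 in Huh7 (40.2%) and 30.5% of all INO80 peaks.

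No coding start lay within 1 kb of 117 domains. Of these, 61 lay within or over a coding gene, 45 over another annotated gene only and 11 over none. A long non-coding RNA start was near 42, a microRNA gene near 9, a 5S ribosomal RNA gene near 5 and a small nucleolar RNA gene near 3. The widest were ASPSCR1, VMP1, NEAT1, MALAT1 and SLC7A5P2. MCRS1 was present at 111 of the 117 (94.9%), against 640 of the 661 domains with a coding start (96.8%). INO80 in Huh7 was present at 80 of the 117 (68.4%), against 616 of the 661 (93.2%). The 5 domains of the 5S array on chromosome 1, between 3162 and 8974 bp wide, lie in near-identical repeats, so their extent is uncertain. Their INO80 cover in Huh7 was between 0 and 6.99%.

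The domains were spread unevenly over chromosomes. Chromosome 17 held 98 of them and chromosome 2 held 86, which is 5.46% and 4.17% of the INO80 peaks there. Chromosome 13 had 2 of 431 peaks (0.464%), chromosome 21 had 1 and chromosome X had 2. The 5 chromosomes with extra copies in HepG2 held 327 domains with YY1 (42.0%) and 22 broad peaks without YY1 (25.6%), against 30.5% of all INO80 peaks. More copies give more reads, and how much of the width follows from that was not tested. With those chromosomes and the sex chromosomes left out, 449 domains remained, and the partner differences kept their direction and passed the test, while the INO80 difference in Huh7 was 8.33 points (Fisher's exact test, adjusted p = 0.0510).

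At the boundaries of the rule, domains differed by a few bases. Just inside 3000 bp were SLC12A4, a cotransporter gene, and SECTM1, which encodes a secreted and transmembrane protein, both 3001 bp, and SQSTM1, which encodes the autophagy receptor p62, with 3002 bp. Just outside were MT1E, a metallothionein gene, and NCOA4, which encodes a ferritin receptor, both 2999 bp, and CNN2, a calponin gene, with 2998 bp. The least YY1 overlap was 3 bp, at GADD45G, a stress response gene. The broad peaks without YY1 that came closest were at NKX2-2, a homeobox gene, with YY1 888 bp away, at ELFN1, a gene for a synaptic membrane protein, with 908 bp, and at FOXC2, a forkhead gene, with 913 bp.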

How the data were processed

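Per the submitters' processing notes, Bowtie2, SAMtools, MACS2, bedtools and deepTools were used, with the builds hg19 and dm3; their versions were not given in the sources used here. The authors deposited 1 filtered peak list per factor and line, with start and end positions and no scores. How libraries of a group were combined for peak calling was not given in the sources used here. YY1 in HepG2 was processed by the submitters from ENCODE reads with the same steps, per the series description. The deposited counts of fly tags per library were not used here.

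Peaks overlapped when they shared 1 bp or more, and cover is the share of a domain's bases under peaks of a list. Starts of protein-coding genes came from basic transcripts of GENCODE release 44 lifted to GRCh37, and a start belonged to a peak when it lay within 1 kb of it. Profiles about starts and promoter motifs used canonical transcripts. Of 614 list entries 613 matched, 612 as written. Shares have 95% Wilson intervals and differences of shares have 95% intervals. The 6 differences were tested by Fisher's exact test (two-sided) with Benjamini-Hochberg adjustment, at a threshold of 0.05. Overlap, cover and the test were checked on simulated intervals. Python 3.11.15, pandas 2.3.3, scipy 1.17.1 and pysam 0.24.0 were used.

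The members and gene lists were chosen with earlier results of these data known. Named by rule were the 20 widest domains, the 5 widest with no coding start, the 5 with the most YY1 peaks, the 3 widest of each gene list, the 3 with the widest Huh7 INO80 peak, and the 3 widest without any partner or without INO80 in Huh7. Other genes were named after their values were seen. Some items that these rules name are not reported here.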

Additional observations from a re-analysis of the deposited data

How the results depend on the processing

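The differences for MCRS1, RUVBL1, RUVBL2 and YY1 in Huh7 kept their direction and passed the test under all settings run: minimum widths of 2000 and 4000 bp, widths of 3000 to 5000 bp, partner peaks counted by their centres, fewer chromosomes and peaks set to 200 bp. At 200 bp they were much smaller, at 29.8, 7.83, 20.6 and 14.6 points. Over all 6 differences this held in 32 of 37 settings. INO80 in Huh7 was 6.43 points at 4000 bp, 8.33 without chromosomes 2, 14, 16, 17, 20 and the sex chromosomes, and 0.413 at 200 bp. The coding start difference was 8.75 points at 4000 bp and 3.42 within 5 kb. It passed at 5.62 points at 2000 bp and at 6.49 with starts of all annotated genes, both smaller than the 14.03 points of the main setting. At 4000 bp only 26 broad peaks without YY1 remained, and for the other settings the cause was not tested. The number of domains was 335 at 4000 bp, 2185 at 2000 bp and 449 on fewer chromosomes, and 771 had at least 50% of a YY1 peak inside. Of 40 shares and medians of the domains recomputed under settings added after seeing the data, 31 stayed within their 95% interval (shares) or within 1 SD over the domains (medians). No paired analysis was possible because each factor and line has 1 list that names no replicate. The lists carry neither heights nor depth, so a peak absent from a list may lie below the caller's threshold, and replicates could not be left out.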
